A study of Mus musculus with 4 samples.

Results

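Contact structures found after acute loss of RAD21 in the mouse embryonic stem cell (mESC) line 1B1 are described here, starting from the map of the treated cells and only then going back to the untreated map. The members were 7 insulation minima, out of 416 bins with an insulation value, and 55 focal windows, out of 7410 windows that had at least 100 reads in the treated map (86052 windows lay at a separation of 60 kb to 2 Mb). Both sets were chosen from the treated map, so their values in that map, and the change from untreated 1B1, are given as descriptions without a test. The calling rules used no values of the untreated libraries, but the members were chosen with earlier results of these data known.

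Tiled Capture-C, in which ligation products of crosslinked and digested chromatin are enriched for chosen regions and sequenced, was performed on 4 libraries of E14 mESCs, 1 per group. All lines were clonal, carried a LacO and a TetO operator array on the same allele of chromosome 15 in a domain whose internal CTCF sites had been deleted, and expressed RAD21 fused to HaloTag and FKBP from both alleles. The treated library was 1B1 (with cassettes of 3 convergent CTCF sites beside the arrays and without resistance promoters) exposed to 500 nM dTAG-13 for 2 h, which sends the FKBP-tagged protein to degradation, and the first reference was the same line without dTAG-13. The other untreated lines, used to see how far a value varies without the treatment, were 1A2 (no 3xCTCF sites, no promoters) and 1F4 (no 3xCTCF sites, resistance promoters retained). The line 1B1 is 1 clone, the arrays are on 1 allele, and the maps hold no measure of the RAD21 protein. The differences between libraries have no replicate check, and the errors given are Poisson errors of the reads, which carried no molecular identifiers and so cover counting error only.

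The region on chromosome 15, in bins of 6.4 kb from Agxt2 to Cdh6 (mm9), held 1375312 reads in the treated library, 1222239 in untreated 1B1, 1225535 in 1A2 and 1558596 in 1F4. Contacts beyond 60 kb made up 27.1% of these reads in the treated library, 38.5% in untreated 1B1, 35.7% in 1A2 and 33.5% in 1F4. The treated map had the fewest windows with 100 reads, 7410 against 11945 in untreated 1B1. It had more reads in all than untreated 1B1. The part of the lower share beyond 60 kb in this number and in the other results was not tested.

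Cohesin is a ring-shaped complex, with RAD21 as its closing subunit, that extrudes chromatin loops and stalls at CTCF bound in a facing orientation. Stalled loops appear in a contact map as focal enrichments between convergent CTCF sites, and the domains they delimit, topologically associating domains (TADs), are separated by minima of insulation. Contacts that do not need cohesin are known as well, chiefly between regions of the same chromatin state and between active promoters.

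The sequences that mark these structures are shown first, from the mm9 assembly (NCBIM37). The guides that placed the arrays fix the middle of the array TAD. They lie at chr15:11496892-11496911 for LacO and chr15:11647356-11647375 for TetO, both on the plus strand and in no gene, with the NGG motif in capitals:
LacO: atgagatgctcggcttccatAGG
TetO: aaatccttgtcctggagtaaTGG
A core of 12 bases, a simplified form of the CTCF motif that reads CCA, any 2 bases, AG, any 2 bases and GGC, was searched on both strands. It occurred 167 times in the region (91 plus, 76 minus), in 30.1% of bins, and in 62.0% of stretches of 3 bins. The form CCAGAAGAGGGC alone made up 70 of the 167 matches (41.9%). A match is a string and not a shown binding site, and the search misses other forms of the motif. The matches at the ends of the array TAD and at the highest ratio of the treated map are given 5′ to 3′ on their own strand, with the core in capitals:
upstream end of the array TAD, chr15:11336795-11336806, minus: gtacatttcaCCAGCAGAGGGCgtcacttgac
upstream end of the array TAD, chr15:11337309-11337320, minus: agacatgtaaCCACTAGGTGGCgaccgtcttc
downstream end of the array TAD, chr15:11895751-11895762, plus: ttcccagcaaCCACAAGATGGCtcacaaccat
downstream end of the array TAD, chr15:11896316-11896327, minus: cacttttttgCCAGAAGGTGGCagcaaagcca
downstream end of the array TAD, chr15:11901433-11901444, plus: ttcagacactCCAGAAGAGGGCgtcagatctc
upstream of Golph3, chr15:12238042-12238053, plus: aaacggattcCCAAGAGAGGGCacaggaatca
upstream of Golph3, chr15:12246406-12246417, plus: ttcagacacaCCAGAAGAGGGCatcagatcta
beyond the Pdzd2 start, chr15:12687973-12687984, plus: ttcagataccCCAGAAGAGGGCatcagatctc
beyond the Pdzd2 start, chr15:12692305-12692316, plus: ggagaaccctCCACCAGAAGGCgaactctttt
beyond the Pdzd2 start, chr15:12695538-12695549, plus: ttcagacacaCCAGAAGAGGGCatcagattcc
At the window between Golph3 and Pdzd2 all 5 matches lay on the plus strand, 2 at the upstream and 3 at the downstream anchor. The signal of that window came from 1 bin pair (12243201 with 12691201), as given with its values. These bins held 1 plus match upstream, 2 plus matches downstream and no minus match.

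Insulation of a bin was taken as the log2 of the mean balanced signal over the contacts that span it (20 bins of 6.4 kb on each side), relative to the mean over the region, so that a boundary is a low value. A minimum was a bin lower than its neighbours up to 10 bins away, with a depth of 0.3 or more, taken from the lower of the peaks found on its 2 sides up to 30 bins away. The treated map had 7 minima (1.68% of bins) and each of the untreated maps had 10 (2.4% in 1B1). Along the region insulation varied less in the treated map, with a standard deviation over bins of 0.26 against 0.36 in 1B1, 0.38 in 1A2 and 0.39 in 1F4. Of the treated minima 5 lay within 3 bins of a minimum of untreated 1B1, and 2 did not. The minimum of least depth in the treated map stood 0.41 below its sides and the deepest bin that missed the rule, in the TetO bin at 11641601, stood 0.28 below them.

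At the bins of the deepest minima of the treated map insulation was less low before treatment. The first lay at 10649601 to 10656000, upstream of the start of Rai14, which encodes an actin-associated ankyrin-repeat protein (nearest protein-coding start at 8.41 kb), in no protein-coding gene and inside the long non-coding RNA gene 4930556M19Rik. Its insulation was −0.83 ± 0.03 in the treated library (4229 reads), −0.13 ± 0.02 in untreated 1B1, −0.08 in 1A2 and −0.15 in 1F4. The treated value was below the 3 untreated values, which lay between −0.15 and −0.08, and the difference from untreated 1B1 was −0.70 ± 0.04. A shallow minimum was present in the same bin in all 3 untreated lines, with a depth of 0.36 in 1B1 against 1.04 after treatment. The lowest change of all bins, −0.73, was in the next bin, 10656001. Contacts across the minimum between bins 10 to 20 apart had a mean observed/expected value (each bin pair divided by the mean at its separation) of 0.536 in the treated map, 0.853 in 1B1, 0.869 in 1A2 and 0.776 in 1F4.

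The second lay at 12883201 to 12889600, in no protein-coding gene, 131.8 kb from the start of Drosha, the nuclease that releases microRNA precursors. Insulation there was −0.83 ± 0.02 in the treated library (4329 reads), −0.34 ± 0.02 in 1B1, −0.42 in 1A2 and −0.34 in 1F4. The nearest minimum in untreated 1B1 was at 12851201, inside Drosha and 32.0 kb away, so the minimum was not shared at 3 bins and was at 5 bins. At that bin inside Drosha insulation was −0.55 in the treated map and −0.40 in untreated 1B1. The depth at 12883201 was 1.09 in the treated map and 0.25 in untreated 1B1. At the bin inside Drosha it was 0.78 in the treated map and 0.73 in untreated 1B1, so a minimum of some depth stood nearby before treatment. Contacts across the treated minimum between bins 10 to 20 apart had an observed/expected value of 0.517 against 0.787 in 1B1, 0.764 in 1A2 and 0.822 in 1F4.

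A further pair of minima, at 10969601 and 12044801, had nearly the same insulation before and after treatment, while their depth differed. At 10969601 the depth was 0.78 in the treated map and 0.55 in untreated 1B1. At 12044801 it was 0.41 in the treated map and 0.70 in untreated 1B1. At 10969601, 5.08 kb from the start of Rxfp3 (a relaxin-family peptide receptor), insulation was −0.59 in the treated library, −0.62 in 1B1, −0.63 in 1A2 and −0.67 in 1F4. The difference from untreated 1B1, 0.03 ± 0.03, was within counting error. At 12044801, in the bin with the start of Zfr (an RNA-binding zinc-finger protein), insulation was −0.32 in the treated library, −0.35 in 1B1, −0.39 in 1A2 and −0.40 in 1F4, a difference of 0.03 ± 0.04 from untreated 1B1.

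The remaining 3 treated minima lay within 51.2 kb of deeper minima of untreated 1B1, and insulation at them was less low than before. At 11897601, 1 bin from the downstream end of the array TAD, insulation was −0.53 in the treated library, −0.73 in 1B1, −0.78 in 1A2 and −0.90 in 1F4. At 12716801, beyond the start of Pdzd2 (a protein with PDZ domains), it was −0.39 in the treated library against −0.70, −0.74 and −0.74. At 11283201, past the end of the metalloproteinase gene Adamts12 and 43.0 kb from the start of Tars, it was −0.49 in the treated library against −0.81, −0.92 and −0.85. This last minimum lay 51.2 kb from the nearest untreated minimum, at 11334401 beside Tars (threonyl-tRNA synthetase), where insulation was −0.28 in the treated library, −0.96 in 1B1, −1.101 in 1A2 and −1.09 in 1F4. That was the bin with the highest change in the region, 0.68 ± 0.03.

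Over the 7 treated minima the median change from untreated 1B1 was 0.03, with 2 lower and 5 higher values, beside a median of 0.01 over all bins. The treated insulation was below all 3 untreated lines at 2 of the 7, against 42.1% of all bins, and above all 3 at the other 5, against 44.7%. Over the 10 minima of untreated 1B1 the median change was 0.35, with 8 higher and 2 lower. Choosing the minima in the other map thus gave another median, and neither is a test. The change varied over bins with a standard deviation of 0.28, against 0.06 for 1A2 minus 1B1 and 0.07 for 1F4 minus 1B1. A change of at least 0.3 was found in 13% of bins downward and in 17.5% upward, which formed 5 and 7 runs of neighbouring bins. The longest downward runs, of 89.6 kb from 10636801 and of 76.8 kb from 12364801 inside Pdzd2, differed in kind. The first was a minimum of the treated map, while in the second insulation was 0.21 in the treated map and 0.67 in 1B1, so that a peak of contact was lower rather than a boundary deeper.

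**Figure D1:**
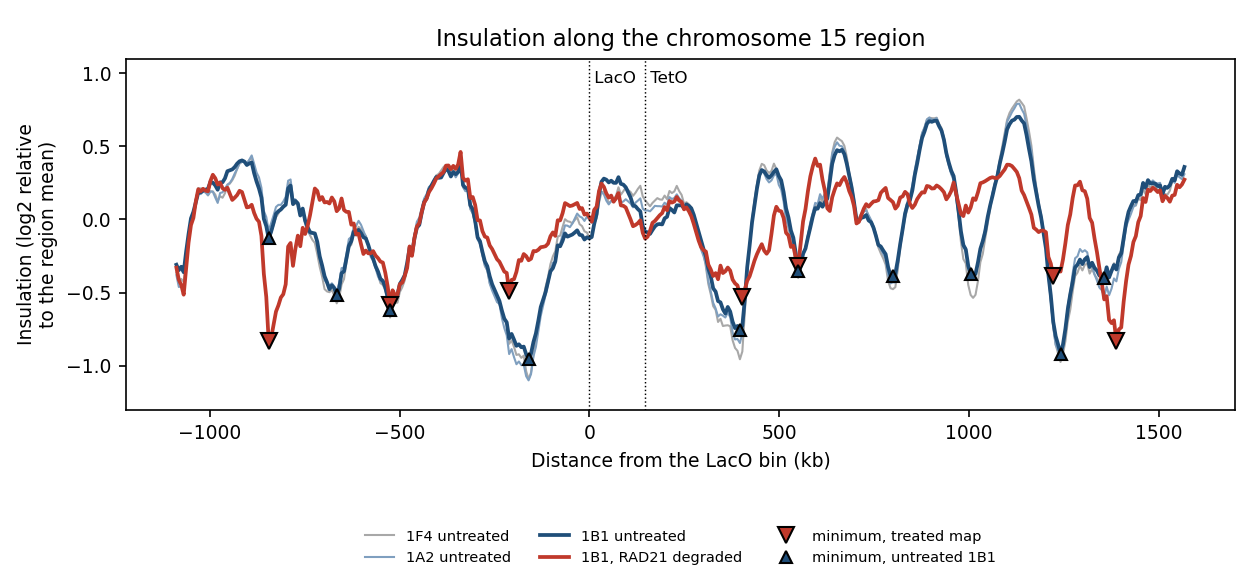
Insulation (log2 relative to the region mean) against distance from the LacO bin in kb for the 4 libraries, with the minima called in the treated map (red triangles) and in untreated 1B1 (blue triangles). The deepest treated minima, at −0.83, lie about 845 kb upstream and 1389 kb downstream of LacO, where the 3 untreated lines lie between −0.42 and −0.08.

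Minima of untreated 1B1 without a partner in the treated map were 5 in number. Those at 10828801, upstream of C1qtnf3 (a secreted protein related to complement C1q), at 12294401 inside Pdzd2, and at 12499201 by the predicted gene Gm2606 had insulation of −0.52, −0.39 and −0.37 in untreated 1B1 and of 0.06, 0.12 and 0.08 in the treated map. At these positions the treated value was above the region mean. The others were those at 11334401 and 12851201 given above.

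Treated minima cut the region into 8 intervals, and contact between them was compared as the mean observed/expected value of bin pairs 64 kb to 2 Mb apart. Low treated contact across a cut and high treated contact within an interval follow in part from cutting at minima of the treated map, so the values are a description. Numbered from upstream, interval 1 runs to the minimum by Rai14, interval 2 to that by Rxfp3, interval 3 holds Adamts12, interval 4 the array TAD with Tars and Npr3, interval 5 Sub1, interval 6 Mtmr12, Golph3 and Pdzd2, interval 7 Drosha, and interval 8 Cdh6. Of 34 pairs of intervals with values, 14 were above all 3 untreated lines, 16 below all 3, and 4 within them. The log2 change from untreated 1B1 had a standard deviation over pairs of 0.33, against 0.09 for 1A2 and 0.11 for 1F4.

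The difference from untreated 1B1 was larger than any between the untreated lines and 1B1 (0.35 on the log2 scale) at 5 pairs upward and 8 downward. Among the 5 upward pairs were those of Cdh6 with the array TAD and with Sub1, and the contacts within intervals 2 and 7. Interval 8, with the cadherin gene Cdh6 as its only protein-coding start site, met interval 4 at 1.46 in the treated map (8497 reads), 1.07 in 1B1, 1.03 in 1A2 and 1.03 in 1F4. It met interval 5 at 1.06 in the treated map against 0.763, 0.686 and 0.666. Within interval 7 the values were 1.31 in the treated map, 0.923 in 1B1, 0.958 in 1A2 and 0.871 in 1F4. The lowest log2 change, −0.66, was within interval 5, around Sub1, at 1.06 in the treated map (1928 reads), 1.67 in 1B1, 1.69 in 1A2 and 1.83 in 1F4. Contact was also lower between Adamts12 (interval 3) and intervals 5 to 7, beyond the array TAD. Intervals 3 and 5 met at 0.457 in the treated map (1028 reads), 0.699 in 1B1, 0.689 in 1A2 and 0.723 in 1F4. Intervals 3 and 7 met at 0.312 in the treated map against 0.479, 0.445 and 0.421. Across the minimum by Rai14, intervals 1 and 2 met at 1.102 in the treated map, 1.39 in 1B1, 1.41 in 1A2 and 1.43 in 1F4, while contact within interval 2 was 1.11 against 0.855, 0.861 and 0.836. Interval 1 with interval 5, on the other side of the array TAD, differed little, with 1.67 in the treated map and 1.66, 1.78 and 1.70 in the untreated lines.

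**Figure D2:**
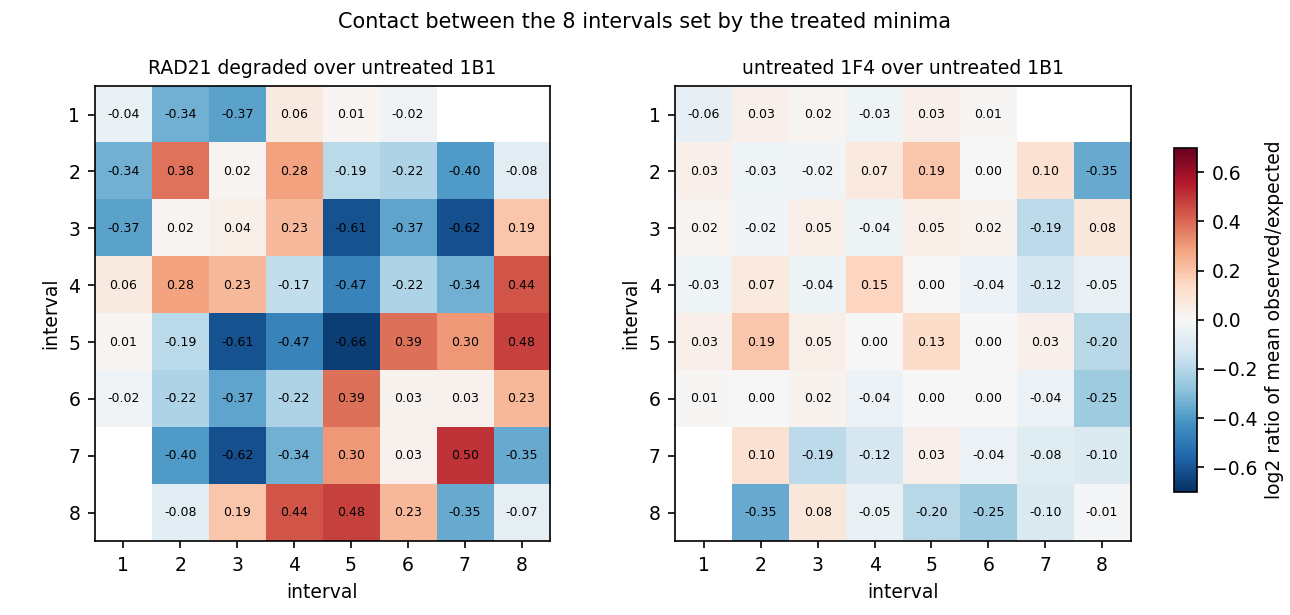
Log2 ratio of the mean observed/expected contact between the 8 intervals set by the treated minima, for 1B1 with RAD21 degraded over untreated 1B1 (left) and untreated 1F4 over untreated 1B1 (right). The treated ratios run from −0.66 to 0.50, and those of 1F4 from −0.35, in the pair with the fewest reads (intervals 2 and 8), to 0.19.

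Focal windows were squares of 3 by 3 bins with a mean observed/expected value at least 1.5 times that of the surrounding ring, from 5 by 5 to 11 by 11 bins, at the highest ratio within 5 bins among windows with 100 reads. In the treated map 55 windows met this rule, and 3.63% of all 7410 windows had a ratio of 1.5 or more before taking local maxima. Their separation ranged from 64 to 908.8 kb with a median of 179.2 kb, and the median number of reads was 131. The ratio in the treated map was between 1.502 and 4.33 with a median of 1.62 and a median counting error of 0.17, so that 13 windows were at least 2 errors above the threshold. Just inside the threshold lay windows with ratios of 1.502, 1.514 and 1.514, and just outside it 1.497, 1.492 and 1.488.

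Read in untreated 1B1, 19 of the 55 windows (34.5%) had a ratio of at least 1.5 and are called kept, against 3.39% of all tested windows. Ratios under 1.2 were found at 6 windows (10.9%), called gained, against 82% of all tested windows, and 30 windows lay between. The median ratio of the 55 windows was 1.41 in untreated 1B1, 1.52 in 1A2 and 1.40 in 1F4. A ratio of 1.5 was reached in all 3 untreated lines by 17 windows, in at least 1 of them by 31 and in none by 24, against 2.46%, 6.03% and 94% of tested windows. The treated ratio was above that of untreated 1B1 at 49 of the 55, against 56.6% of tested windows. A ratio under 1.2 in all 3 was found at 2 windows, against 72.3% of tested windows.

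Windows called in an untreated line also had lower ratios when read in another line. Windows called in 1A2 had a median of 1.51 in untreated 1B1, where 46 of 87 (52.9%) were kept and 8 (9.20%) were under 1.2. Windows called in 1F4 had a median of 1.51 in 1B1, with 45 of 88 (51.1%) kept and 9 (10.2%) under 1.2. The share of windows under 1.2 in untreated 1B1 was thus 10.9% for the treated calls and 9.20% and 10.2% for calls in the other untreated lines. In the other direction, 78 windows were called in untreated 1B1, and in the treated map 33 of these (42.3%) were kept and 20 (25.6%) were under 1.2, whereas 6 (7.69%) were under 1.2 in 1A2 and 5 (6.41%) in 1F4. Treated reads at those 78 windows had a median of 92.

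**Figure D3:**
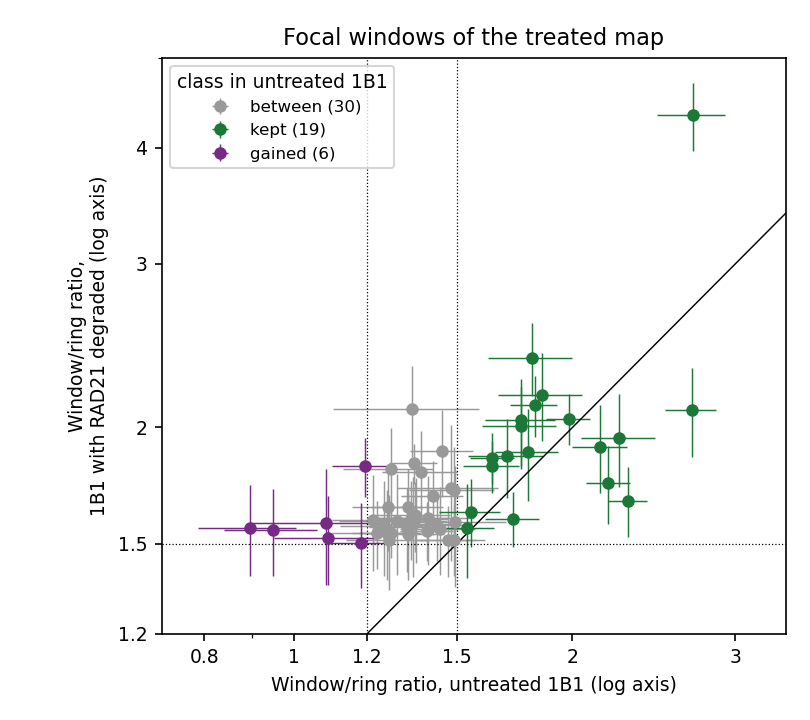
Window/ring ratio of the 55 focal windows of the treated map, in 1B1 with RAD21 degraded against untreated 1B1, both on log axes with counting errors. Dotted lines mark 1.5 and 1.2 and the solid line equal ratios, and the 19 kept windows include the 6 that lie below the line of equal ratios.

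The highest ratio of the treated map, at 12236801 with 12684801 between Golph3 (a Golgi membrane protein) and the far side of the Pdzd2 start, came from 1 bin pair and not from an enriched window. Its ratio was 4.33 ± 0.36 in the treated map (203 reads), 2.70 ± 0.23 in untreated 1B1 (173 reads), 3.13 ± 0.26 in 1A2 and 3.20 ± 0.24 in 1F4. Of these reads, the bin pair 12243201 with 12691201 held 162 in the treated map, all but 45 in 1B1, 139 in 1A2 and 176 in 1F4, or 76.5%, 72.8%, 70.1% and 72.7% of the observed/expected signal of the window. The observed/expected value of this pair was 58.1 ± 4.6 in the treated map, 33.1 ± 2.9 in 1B1, 35.6 ± 3.0 in 1A2 and 40.2 ± 3.0 in 1F4. It thus stood far above its surroundings in every library and was highest in the treated map. Whether this signal is a contact or an effect of mapping or sequence was not tested. The other 8 pairs of the window had a mean of 2.22 ± 0.36 in the treated map (41 reads), 1.55 ± 0.24 in 1B1, 1.90 ± 0.28 in 1A2 and 1.88 ± 0.26 in 1F4, a difference between treated and untreated 1B1 of under 2 counting errors. The window called for this signal in untreated 1B1, 12249601 with 12697601, holds the same bin pair at its opposite corner. In none of the other 54 windows did a bin pair hold more than 30.8% of the treated signal, and none had this pair in its window or ring.

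Contacts among start sites upstream of the array TAD formed several of the windows. The start shared by Rad1 (a subunit of the DNA damage checkpoint clamp) and Brix1 (a ribosome biogenesis factor) met that of Rai14 (10419201 with 10643201, 224 kb) at a ratio of 2.04 ± 0.13 in the treated map, 1.98 ± 0.11 in 1B1, 1.82 in 1A2 and 2.31 in 1F4. The treated value lay within the untreated values. The same start met Amacr (a racemase of branched-chain fatty acid metabolism) over 492.8 kb at 2.04 ± 0.22 in the treated map, 1.76 ± 0.15 in 1B1, 1.96 in 1A2 and 2.18 in 1F4. It met Tars over 908.8 kb, across 3 of the treated minima, at 1.95 ± 0.22 in the treated map (105 reads), 2.25 ± 0.21 in 1B1, 2.61 in 1A2 and 2.39 in 1F4, below all 3 untreated lines. Amacr met Tars at 1.89 ± 0.20 in the treated map, 1.45 ± 0.11 in 1B1, 1.61 in 1A2 and 1.56 in 1F4, a window of the class between with a ratio above all 3. Its observed/expected value was 3.21 ± 0.32 in the treated map, 3.21 ± 0.24 in 1B1, 3.44 in 1A2 and 3.83 in 1F4, so that the contact itself was not higher than in the untreated lines.

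A pair of windows joined bins on either side of the Rai14 start to the bin at 10905601, which holds the start of Amacr. For the first, from the bin of the deep minimum at 10649601, the ratio was 2.38 ± 0.21 in the treated map, 1.81 ± 0.19 in 1B1, 2.44 in 1A2 and 2.22 in 1F4, so that the ratio lay within the untreated lines. Its observed/expected value was 3.00 ± 0.24 in the treated map, 1.52 ± 0.15 in 1B1, 1.87 in 1A2 and 1.61 in 1F4, 1.98 times that of untreated 1B1. The ratio differed less, with a log2 difference of 0.39 ± 0.20. The second, from 10611201 inside Rai14, had a ratio of 2.17 ± 0.24 in the treated map, 1.86 ± 0.19 in 1B1, 1.49 in 1A2 and 1.70 in 1F4.

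The stretches just before the start sites of Rai14, Amacr and Tars, which recur at the anchors of these windows, are shown as the 200 bases before each annotated start (GENCODE vM1, NCBIM37, 5′ to 3′ on the strand of the gene) with CpG dinucleotides in capitals:
Rai14, chr15:10644387-10644586, minus: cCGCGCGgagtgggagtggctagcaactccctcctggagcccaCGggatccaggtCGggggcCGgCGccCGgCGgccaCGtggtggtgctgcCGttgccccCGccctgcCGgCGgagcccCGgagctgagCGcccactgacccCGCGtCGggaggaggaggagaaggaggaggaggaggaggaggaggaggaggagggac
Amacr, chr15:10911311-10911510, plus: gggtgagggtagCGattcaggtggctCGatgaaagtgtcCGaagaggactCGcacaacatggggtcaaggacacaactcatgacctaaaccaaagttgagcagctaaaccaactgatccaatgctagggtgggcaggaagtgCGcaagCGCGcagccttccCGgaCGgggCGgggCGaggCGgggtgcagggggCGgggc
Tars, chr15:11329414-11329613, minus: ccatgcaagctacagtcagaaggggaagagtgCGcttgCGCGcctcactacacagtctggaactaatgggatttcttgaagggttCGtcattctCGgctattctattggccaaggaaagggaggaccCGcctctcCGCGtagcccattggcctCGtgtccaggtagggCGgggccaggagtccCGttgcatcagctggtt
They held 19, 13 and 11 CpG dinucleotides. The median over the 792 protein-coding genes of chromosome 15 was 10, and 20.6%, 39.8% and 46.8% of these genes had at least as many.

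Both anchors had a protein-coding start site within 1 bin at 8 of the 55 windows, against 2.46% of tested windows. These were 5 kept windows, 3 between and none of the gained. They comprised the pairs given above of Rad1 and Brix1 with Rai14, Amacr and Tars, of Rai14 with Amacr, and of Amacr with Tars. The other pairs were Tars with Npr3 (the clearance receptor of natriuretic peptides), Mtmr12 with Golph3 and Zfr with Golph3. Exactly 1 anchor had such a start at 18 windows, against 23% of tested windows. The anchors used most often were those around Tars (11321601 to 11347200) and Npr3 (11827201 to 11840000), in 5 windows each, and then those at 10662401, at Amacr and before Golph3, in 4 each. As windows share anchors, the 55 windows are not independent of each other, with 85 distinct bins in 61 groups of neighbours.

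The focal contact between the ends of the array TAD was lower than before and still met the rule. Its window, 11340801 with 11891201, lay 550.4 kb apart, 14.6 kb from the start of Tars and 32.3 kb from that of Sub1 (a single-stranded DNA-binding coactivator). The core search found 2 minus matches and no plus match at the upstream anchor, and so no convergent pair. The ratio was 2.09 ± 0.23 in the treated map (104 reads), 2.69 ± 0.17 in untreated 1B1 (325 reads), 3.36 ± 0.18 in 1A2 and 3.29 ± 0.16 in 1F4. Observed/expected contact was 3.53 ± 0.36 in the treated map, 6.91 ± 0.40 in 1B1, 10.8 in 1A2 and 10.9 in 1F4. The treated value was below all 3 untreated lines, 0.511-fold of untreated 1B1, a log2 difference of −0.97 ± 0.17. This was 1 of 5 windows with a ratio below all 3 untreated lines (24.3% of tested windows), against 37 windows above all 3 (36.9%). The rule fixed a high treated ratio, so nothing is read from the last count.

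A pair of neighbouring windows along Pdzd2 was lower as well. From 12512001, near Gm2606, to 12716801 the ratio was 1.67 ± 0.14 in the treated map (161 reads), 2.30 ± 0.11 in 1B1 (541 reads), 2.44 in 1A2 and 2.63 in 1F4. From 12300801 to 12499201 it was 1.74 ± 0.17 in the treated map, 2.19 ± 0.12 in 1B1, 2.60 in 1A2 and 2.70 in 1F4. Observed/expected contact was 0.527-fold and 0.529-fold of untreated 1B1.

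Downstream of the array TAD, windows stood around Sub1, Zfr and Mtmr12 (a catalytically inactive myotubularin-related protein). From 11910401, at the end of Sub1, to 12089601, inside Zfr, the ratio was 2.114 ± 0.16 in the treated map, 1.82 ± 0.11 in 1B1, 2.33 in 1A2 and 2.36 in 1F4. From 11827201, by the start of Npr3, to 11955201 it was 2.10 ± 0.24 in the treated map (131 reads), 1.34 ± 0.24 in 1B1, 1.70 in 1A2 and 1.29 in 1F4. This window crosses the downstream end of the array TAD, and its observed/expected value was 1.21 in the treated map against 0.764, 0.878 and 0.618. Along Zfr itself, from 12051201 to 12115201, the ratio was 1.83 ± 0.09 in the treated map (658 reads), 1.35 ± 0.08 in 1B1, 1.37 in 1A2 and 1.29 in 1F4. This was the window with the most reads of the 55, and its bins run from the start to the end of the gene.

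**Figure D4:**
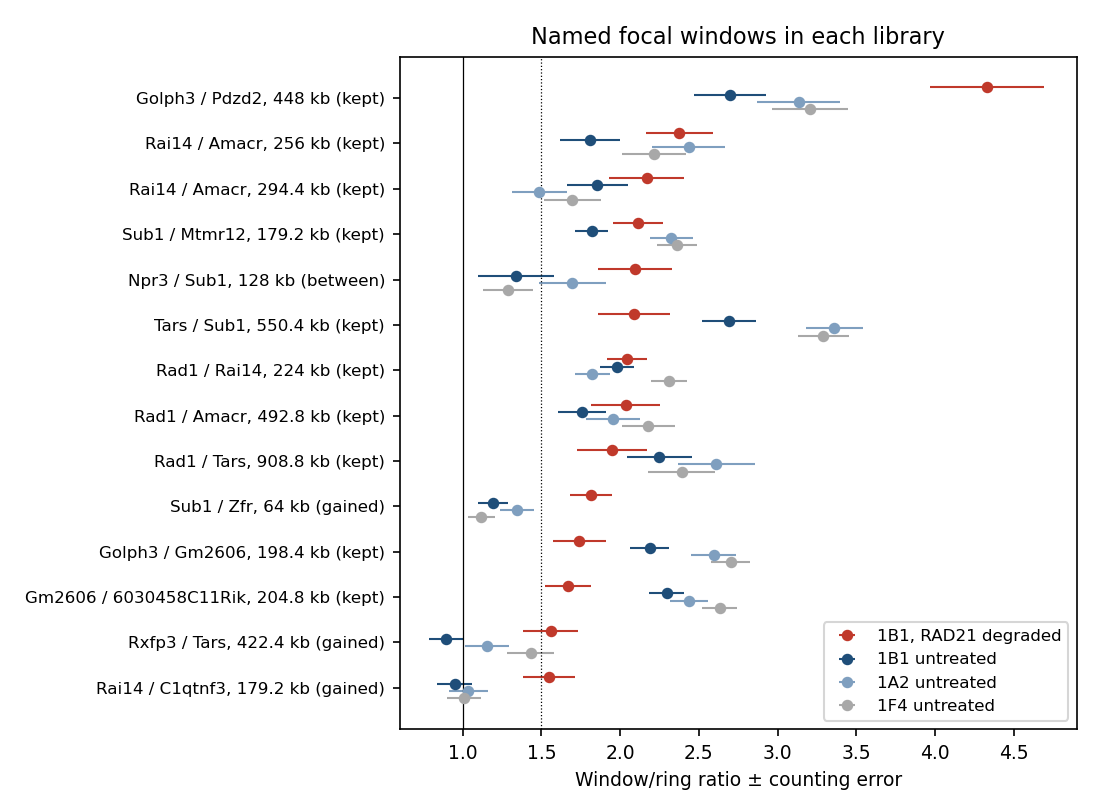
Window/ring ratio with its counting error in the 4 libraries for the 14 focal windows named by rule, labelled by the start sites nearest to their anchors, their separation and their class in untreated 1B1. The window by Golph3 and Pdzd2 (4.33 in the treated map) rests on 1 bin pair in all 4 libraries, and the window by Tars and Sub1, the ends of the array TAD, lies to the left of its untreated values in the treated map (2.09).

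The gained windows had treated ratios between 1.502 and 1.82. All 6 were at least 2 counting errors under 1.5 in untreated 1B1, which follows largely from the class limit of 1.2. In the treated map only the window from 11968001 to 12032001 (1.82 ± 0.13) was at least 2 counting errors above 1.5. The other gained windows lay within 1 counting error of that threshold. The window with the lowest ratio before treatment joined 10963201, by the start of Rxfp3, to 11385601, 59.4 kb beyond that of Tars. It had a ratio of 1.56 ± 0.18 in the treated map (118 reads), 0.896 ± 0.11 in 1B1 (93 reads), 1.15 in 1A2 and 1.43 in 1F4. The untreated lines were spread from 0.896 to 1.43, and 1F4 lay within 1 counting error of the treated map. Its observed/expected value was 2.35 in the treated map, 1.13 in 1B1, 1.24 in 1A2 and 1.56 in 1F4.

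The window from 10662401 to 10841601, in the stretch without protein-coding genes between Rai14 and C1qtnf3, was the gained window that was near 1 in all 3 untreated lines. The ratio was 1.55 ± 0.17 in the treated map (112 reads), 0.950 ± 0.11 in 1B1, 1.04 ± 0.12 in 1A2 and 1.01 ± 0.11 in 1F4. The untreated values lay close together around 1, and the log2 difference from 1B1 was 0.71 ± 0.23. Observed/expected contact was 1.39 in the treated map against 0.747, 0.806 and 0.783. It lay in interval 2, whose inner contacts as a whole were higher in the treated map. A neighbouring window, 10726401 with 10873601, had a ratio of 1.58 ± 0.23 in the treated map (100 reads), 1.08 ± 0.19 in 1B1, 1.34 in 1A2 and 1.58 ± 0.24 in 1F4 (76 reads). The ratio of 1F4 without treatment was thus as high, on fewer reads than the rule asks for. Observed/expected contact at this window was 1.64 ± 0.22 in the treated map, 0.653 ± 0.11 in 1B1, 0.837 in 1A2 and 0.868 in 1F4, so that it was above all 3 untreated lines.

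Between Sub1 and Zfr, from 11968001 to 12032001, the ratio was 1.82 ± 0.13 in the treated map (401 reads), 1.19 ± 0.09 in 1B1, 1.35 in 1A2 and 1.12 in 1F4, with a log2 difference of 0.61 ± 0.16 from 1B1. From 11187201 to 11436801, across the start of Tars, it was 1.52 ± 0.17 in the treated map, 1.09 ± 0.14 in 1B1, 1.32 in 1A2 and 1.22 in 1F4. Inside the array TAD, from 11507201 beside LacO to 11782401 in Npr3, it was 1.502 ± 0.16 in the treated map, 1.18 ± 0.10 in 1B1, 1.09 in 1A2 and 1.17 in 1F4. The observed/expected value of this last window was 1.63 in the treated map and 1.55, 1.67 and 1.99 in the untreated lines, so that its contact itself lay within them.

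The log2 change of the ratio was more than 2 counting errors above 0 at 8 of the 55 windows, namely 3 gained, 4 between and 1 kept (the window that rests on 1 bin pair), against 5.37% of tested windows, and below 0 at 2 kept windows, against 4.51%. Nothing is read from these counts, since the rule asked for a high treated ratio. Observed/expected contact itself was above all 3 untreated lines at 30 windows, against 45.3% of tested windows, and below all 3 at 16, against 31.8%. Of the 19 kept windows 10 were below and 8 above. The observed/expected value of a window is the numerator of the ratio that the rule used, so nothing is read from these counts either. Reads were fewer in the treated library at 16 of the 19 kept windows, against 68.7% of tested windows. They were more at 5 of the 6 gained, against 30.5%. The rule asked for 100 reads in the treated window only, and untreated 1B1 set the classes, so nothing is read from these shares. The part of the read numbers in these classes was not tested. The arrays themselves were in no window of the list as a pair. The LacO-TetO window had a ratio of 1.29 ± 0.13 in the treated map (134 reads), 1.34 ± 0.10 in untreated 1B1, 0.885 ± 0.09 in 1A2 and 1.25 ± 0.10 in 1F4. A window 2 bins from it, 11507201 with 11641601, was just inside the rule, with 1.51 ± 0.13 in the treated map, 1.47 ± 0.11 in 1B1, 1.42 in 1A2 and 1.44 in 1F4.

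Averaged over windows, the kept class had a mean observed/expected value at the centre of 2.98 in the treated map, 3.29 in 1B1, 3.71 in 1A2 and 3.82 in 1F4. Without the window that rests on 1 bin pair, the other 18 had 2.68 in the treated map, 3.19 in 1B1, 3.61 in 1A2 and 3.69 in 1F4. The windows between had 1.89 in the treated map, 1.59 in 1B1, 1.68 in 1A2 and 1.59 in 1F4. The gained class had 1.70 in the treated map, 1.01 in 1B1, 1.104 in 1A2 and 1.17 in 1F4. All 55 windows were chosen for a high treated ratio and the classes were set by the ratio in untreated 1B1, which 1A2 and 1F4 resemble, so nothing is read from the order of the libraries within a class.

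**Figure D5:**
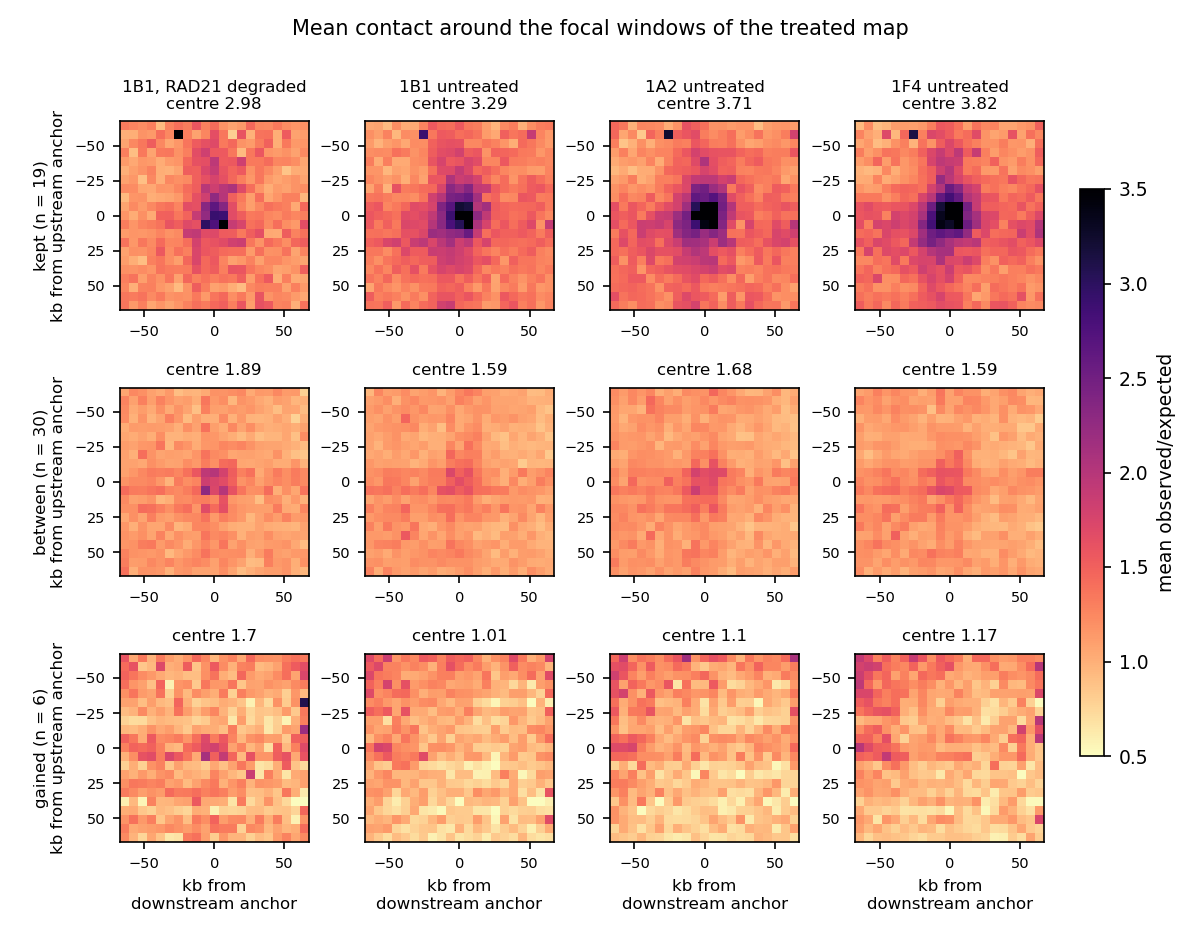
Mean observed/expected contact around the kept, between and gained windows (rows) in the 4 libraries (columns), with the distance from each anchor in kb and a colour scale that ends at 3.5. The mean of the central 3 by 3 bins is written above each panel, the isolated dark bin at the upper left of each kept panel is the pair 12243201 with 12691201, and the gained windows have a centre of 1.70 in the treated map and of 1.01 to 1.17 in the untreated lines.

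Features of the anchors were compared with all bins of the region. A protein-coding start lay within 1 bin for 25.9% of the 85 anchor bins, 37.5% of the 32 bins of kept windows, 16.7% of the 12 bins of gained windows and 12.7% of all bins. Protein-coding genes overlapped 65.6% of kept, 25% of gained and 57.4% of all bins. Median GC content was 43.8% in kept, 41.8% in gained and 42.9% in all bins, and median CpG numbers per bin were 72.5, 43.5 and 59. The number of MboI sites, at which the chromatin was cut, had medians of 14.5, 11 and 15. The core with a plus match upstream and a minus match downstream was found at 14 of the 55 windows, against 21% of tested windows, and at 6 of the 19 kept windows. Of the 7 minima, 5 had a core match in their bin or the next on either side, and those by Rai14 and Rxfp3 had none. This share, 71.4%, was near the 62.0% of all bins.

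Pairs of start sites were also read at all separations from 60 kb to 2 Mb, whether or not they formed a focal window. Genes taken as broadly expressed from general knowledge were Rad1, Brix1, Dnajc21, Rai14, Tars, Sub1, Zfr, Mtmr12, Golph3 and Drosha, and the list was drawn up with earlier results of these data known and shares genes with the windows above. Their 32 pairs had a median observed/expected value of 2.34 in the treated map, 2.28 in untreated 1B1, 2.64 in 1A2 and 2.55 in 1F4. The 31 pairs among the remaining genes had 1.07 in the treated map, 1.01 in 1B1, 1.09 in 1A2 and 1.07 in 1F4, and all windows had 0.915, 0.869, 0.847 and 0.845. Pairs that joined a gene of the list with a remaining gene, 81 in number, had 1.07 in the treated map, 1.37 in 1B1, 1.303 in 1A2 and 1.29 in 1F4.

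The treated value was above all 3 untreated lines at 9 of the 32 broad pairs (28.1%) and below all 3 at 9, beside 33.9% and 31.5% of all 86052 windows. Among the mixed pairs it was below all 3 untreated lines at 44 of 81 (54.3%) and above all 3 at 16 (19.8%). Among the 31 pairs of remaining genes it was above all 3 at 10 (32.3%) and below all 3 at 8 (25.8%). Read numbers limit these pairs, since 26 of the 32 broad pairs and 70 of the 81 mixed pairs had fewer than 100 reads in the treated map, with medians of 54.5 and 30 reads. The pair of Rai14 with Mtmr12, 1491 kb apart, had an observed/expected value of 3.61 in the treated map (56 reads), 2.78 in 1B1 (38 reads), 3.55 in 1A2 and 3.72 in 1F4. The pair of Tars with Zfr, on either side of the array TAD, had 1.26 in the treated map (31 reads), 2.68 in 1B1 (103 reads), 3.20 in 1A2 and 3.24 in 1F4. Both were chosen as examples after their values were seen.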

How the data were processed

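Per the submitters' notes, HiC-Pro 2.11.4 and mm9 were used. The authors summed valid read pairs within the targeted regions in bins of 6.4 kb, and balanced them with ICE. The deposited values are this balanced signal per bin pair, scaled to the same sum in every library. A balanced signal is the read number times a factor of each bin, and reads were recovered by solving for the factors. Every value (100%) was whole to 0.05 reads, with a largest deviation of 0.00514 reads. The region had 456 bins, of which 1 was not balanced. The last bin of chromosome 15 ends at 103494974, the length in NCBIM37. Genes are from GENCODE vM1.

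Measures were computed with Python 3.11.15, NumPy 2.4.6, pandas 2.3.3 and SciPy 1.17.1, and were tested on simulated data. The members and lists were chosen with earlier results of these data known. With 1 library per group no test across replicates was made. Named were every treated minimum, the 8 windows with the highest treated ratio, the 5 with the lowest untreated over treated ratio, the 5 with the highest ratio in untreated 1B1, the array bins and the ends of the array TAD. Other windows were named after their values were seen. Alternatives changed the thresholds, the ring, the window, the balancing, the expected value, the depth, the reference line and the bins beside the arrays.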

Additional observations from a re-analysis of the deposited data

How the results depend on the processing

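Of 76 alternative values, 42 stayed close to the reported value (within 1.5 times for counts, within the spread over the untreated lines for medians), and 34 moved further. Counts and ratios cannot change sign. Only the median insulation change could, and it kept its sign in all its alternatives, of which 4 stayed close and 5 moved further. The counts follow the thresholds. The 55 windows, 19 kept, 6 gained and the median ratio of 1.41 in untreated 1B1 became 105, 51, 37 and 1.29 at a ratio of 1.3, and 9, 2, 0 and 1.82 at a ratio of 2. With 50 reads there were 152 windows, 46 kept and 45 gained, and with 200 reads 13, 7 and 1, with a median of 1.55. Without division by the expected value there were 34 windows and 2 gained. On recovered reads without balancing there were 115 windows and 80 kept, with a median of 1.69. With a window of 5 by 5 bins and, at once, a ring from 7 by 7 to 13 by 13 bins, 32 were kept and 14 gained, and that ring alone gave 26 and 8. Taking local maxima among all windows, an alternative chosen after seeing the data, gave 44 windows, 16 kept and 5 gained. Leaving out the window that rests on 1 bin pair, also chosen after seeing the data, gave 54 windows, 18 kept and 6 gained.

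The 7 treated minima became 16 with a square of 10 by 10 bins and 11 at a depth of 0.2. The 2 without a partner in untreated 1B1 became 5 with squares of 10 by 10 and of 30 by 30 bins, 4 at a depth of 0.2, 4 on observed/expected values and 1 when shared within 5 bins. The median change at the treated minima, 0.03, became 0.11 at a depth of 0.5, 0.0826 on observed/expected values, 0.0040 on recovered reads, 0.0685 against 1A2 and 0.0825 against 1F4. The cause was not tested, beyond what each threshold does by its construction. Thinning the treated reads to the 1222239 of untreated 1B1 gave 50 windows, 17 kept and 5 gained, and 7 minima. No paired analysis was possible because each group has 1 library with the same replicate number. Thinning matched the total only, and before it the treated map held 373250 reads beyond 60 kb against 471073 in untreated 1B1. The effect of fewer distant reads on the calls was not tested. In the treated map the gained windows held 100 to 401 reads.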
